A study of Bos taurus with 8 samples.

Results

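The genes FABP3, FABP4, FABP5, LPL, PLIN1, ADIPOQ, PCK1 and CIDEA, which bind, release or store lipid and are in part typical of fat cells, were followed in biopsies of the bovine endometrium, the inner lining of the uterus. They were taken by name: every noncontrol probe that carried a symbol of these 8 genes in its gene name or description was used, which gave 22 of the 43653 noncontrol probes of the array. Of the 22 probes, 17 were tested and 5 were too dim on too many arrays. The tested probes covered 7 of the 8 genes, and only ADIPOQ had none. The symbols with a probe numbered 17197 over the whole array.

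The tested cows received 5 mM methylglyoxal, a reactive dicarbonyl formed in glycolysis that glycates proteins, and the cows they were set against received 0 mM. Each uterine horn was given 25 mL of fluid on day 1 after standing estrus (day 0), and on day 7 an endometrial biopsy was taken from the horn ipsilateral to the corpus luteum. There were 4 cows in each group, each with its own 1-colour Agilent array, and their age and breed were not in the labels used here. A biopsy is a mixture of epithelium, stroma, vessels, leukocytes and at times muscle of the uterine wall, so fewer cells of a type and less RNA per cell cannot be told apart.

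Fatty acid binding proteins (FABPs) are small cytosolic proteins that hold a fatty acid in a barrel-shaped pocket and carry it between membranes, enzymes and nuclear receptors. Lipoprotein lipase (LPL) sits on the capillary wall and frees fatty acids from circulating triglycerides, perilipin 1 (PLIN1) and CIDEA coat lipid droplets and control their breakdown and fusion, and PCK1 makes the phosphoenolpyruvate from which glucose, or the glycerol backbone of triglycerides, can be built. Adiponectin (ADIPOQ) is a hormone secreted almost only by fat cells. The uterine lining stores and moves lipid in the days before implantation, when the early embryo lives on its secretions.

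The array probes are strands of 60 bases, and what each gene's value means depends on where its probes lie. The probes printed here are those whose values carry the results. FABP3 had 4 probes on chromosome 2 of the HGSC Btau_3.1 build, plus strand. The first of them, A_73_P378211, lies at chr2:126264175-126264234, and A_73_P109351 is spread over chr2:126266316-126267866, a span of 1551 bases for 60 bases of probe, so that it bridges an intron. CIDEA had 4 probes on chromosome 24, plus strand, of which A_73_P472288 lies farthest upstream, at chr24:44380862-44380921. For the sole FABP4 probe (A_73_114371, chr14:41955301-41955360, minus strand), the brightest LPL probe (A_73_108260, chr8:70213830-70213889, plus strand), A_73_113063 of PCK1 (chr13:59373116-59373175, minus strand) and A_73_100290 and A_73_P436496 of CIDEA (chr24:44386218-44386277 and chr24:44388126-44388185), the first 30 bases are shown. All run 5′ to 3′.
FABP3 A_73_P378211: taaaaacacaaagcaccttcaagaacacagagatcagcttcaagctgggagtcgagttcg
FABP3 A_73_P109351: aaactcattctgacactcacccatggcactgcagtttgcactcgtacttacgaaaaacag
FABP4 A_73_114371: aatggatgacgtttgcatcgaactccatga
LPL A_73_108260: cctgtacaaagtagaatgaatgctgtgact
PCK1 A_73_113063: atataccatggttccttacctttacataat
CIDEA A_73_P472288: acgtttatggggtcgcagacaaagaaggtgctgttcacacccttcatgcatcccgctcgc
CIDEA A_73_100290: aggatccaggggctgcacagtgccttccgc
CIDEA A_73_P436496: ctgggaactaggagagggtaggcttcgtgt

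On each array between 68.3% and 73.2% of probes were well above background, and the 75th percentile of the signal lay between 1032 and 1456 intensity units. Levels are log2 signals relative to that percentile. A difference is the 5 mM mean minus the 0 mM mean, with its standard error (SE), and group values are means ± SD over 4 cows. The number of arrays limits the precision, and levels of different probes are not set against each other. The array of 5 mM replicate 1 stood apart, with a mean of -3.38 over 17 markers of luminal and glandular epithelium, relative to the mean of the 8 arrays, against 0.31 to 0.83 on the other 7. Smooth muscle markers averaged 2.50 on that array, 1.56 on 5 mM replicate 3 and 1.30 for 0 mM replicate 1. The other 5 arrays had means from -1.53 to -0.84. Differences of single genes are therefore also given without these 3 arrays, or without 5 mM replicate 1, where that moved them by more than 1.5 times. Without the 3 arrays, only 5 mM replicates 2 and 4 are set against 0 mM replicates 2, 3 and 4, so these differences rest on few cows.

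The comparison asks whether intrauterine methylglyoxal altered the RNA of these lipid genes. LPL and FABP5 had higher mean values in the 5 mM group, FABP3 had lower ones, FABP4 was high in 3 muscle-rich biopsies of both groups, and the adipocyte hormone gene ADIPOQ was well above background with 1 probe on 1 array only. None of these differences passed the multiple-testing threshold. By limma, adjusted after Benjamini and Hochberg, 0 of the 17 tested probes had an adjusted p under 0.05, where 0% of all 31108 tested probes did, and their adjusted p lay between 0.913 and 0.979. At an unadjusted p under 0.05 there were 3 of the 17, which are 1 probe each of LPL, FABP5 and FABP3, against 1.91% of all tested probes. The LPL and FABP5 probes are the 2 higher in the 5 mM group, where 0.958% of all tested probes were called higher, and the FABP3 probe is the 1 lower, where 0.955% were called lower. The genes were chosen with earlier results of these arrays known, and probes of a gene are not independent, so this share is a description. It was 1 of 17 without the 3 muscle-rich arrays, against 2.15% of all tested probes in that setting. It was 1 of 17 also without 5 mM replicate 1, 5 mM replicate 3 or 0 mM replicate 4, against 1.94%, 1.21% and 1.66% of all tested probes. Without 5 mM replicate 2 it was 6 of 17, where the share over all tested probes was 4.91%. In 0 of the 17 probes did the groups lie wholly apart, against 1.54% of all tested probes. Of the 17, 10 had a higher and 7 a lower mean in the 5 mM group.

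**Figure D1:**
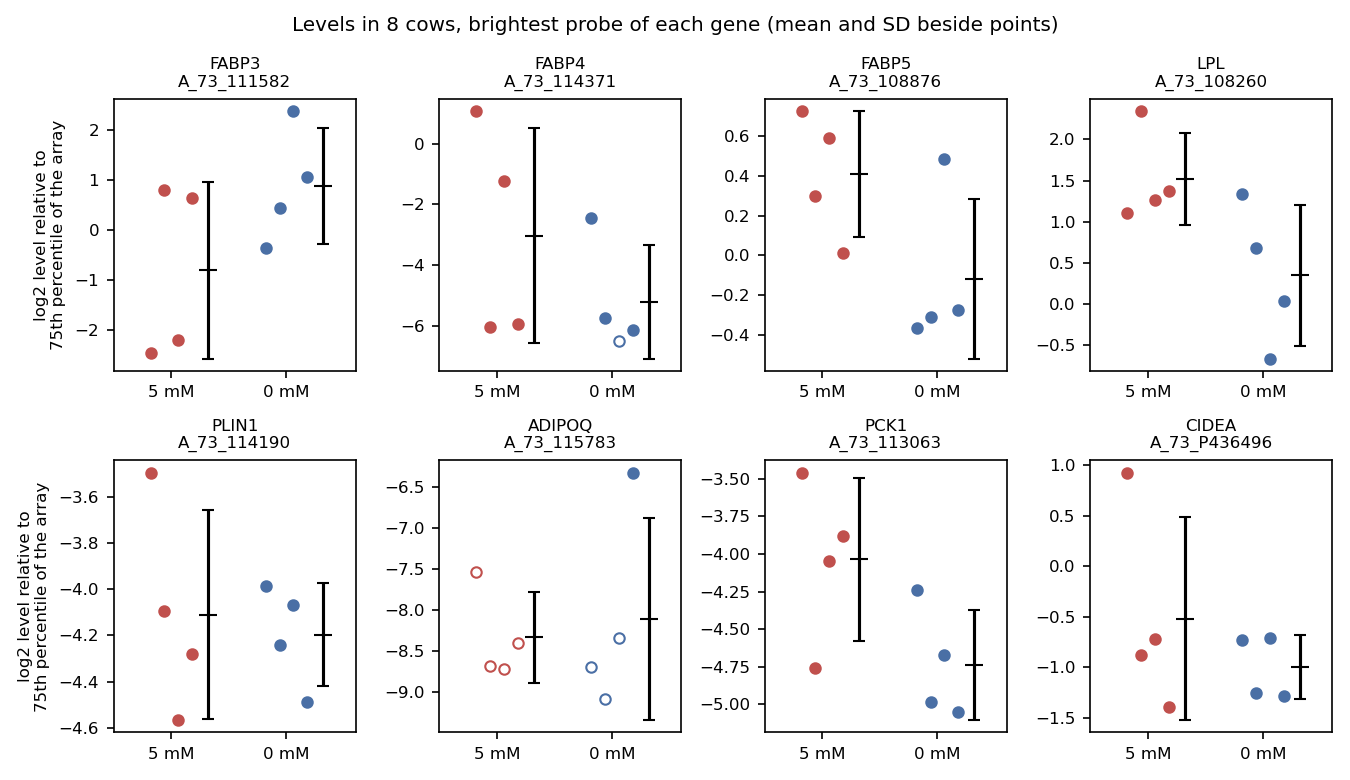
Level of the brightest probe of each of the 8 genes in every cow (y axis, log2 signal relative to the 75th percentile of the array; 5 mM left, 0 mM right, 4 cows each), filled where the probe was well above background and open where it was not, with the mean and SD beside the points. The groups overlap in all 8 panels, and FABP4 spans the widest range, from -6.52 to 1.07.

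FABP4, also called the adipocyte fatty acid binding protein and known as well from capillary endothelium and macrophages, varied more than any of the other 7 genes. Its level was 1.07, -6.05, -1.23 and -5.93 in 5 mM replicates 1 to 4 and -2.45, -5.76, -6.52 and -6.13 in 0 mM replicates 1 to 4. The 3 high cows were 5 mM replicates 1 and 3 and 0 mM replicate 1, and the other 5 lay within 1 unit of each other. The highest signal was 146 times the lowest of the 7 that were well above background, and 0 mM replicate 3 was not. These signals were those of 5 mM replicate 1 and 0 mM replicate 4. With normexp background correction the levels of these cows were 1.06 and -3.87, so the size of the fold depends on the background treatment. The group means were -3.04 ± 3.54 in treated cows and -5.21 ± 1.87 in cows given 0 mM, which is a difference of 2.18 ± 1.74 (limma, unadjusted p = 0.245, adjusted p = 0.913). The difference was 0.81 without 5 mM replicate 1 and 0.14 without the 3 muscle-rich arrays. Within slides 1, 2 and 3, each of which holds both groups, it was 3.52, 0.085 and 2.55.

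The same 3 cows had the highest smooth muscle marker means, at 2.50 and 1.56 in treated cows and 1.30 in the cow given 0 mM, as plotted beside FABP4. All 14 smooth muscle markers were measured, and 13 of them had higher means in the 5 mM group (median 1.098). The marker means of the cell types from which FABP4 is best known did not follow this order. The endothelial marker mean was -0.84, 0.17 and -0.21 on 5 mM replicates 1 and 3 and 0 mM replicate 1, against -0.049 to 0.31 on the other 5 arrays. The macrophage marker mean was -0.61, -0.67 and -0.69 on these 3 arrays and between 0.0082 and 0.64 on the others. For the 11 measured adipocyte markers other than the 8 genes it was -0.32, -0.13 and -0.11, against -0.032 to 0.30. Single adipocyte markers were not alike. On these 3 arrays GPD1 was 1.69, 0.92 and 1.58, against -0.94 to 0.53 on the others. GPAM was -0.84, -1.32 and -1.21 there, against -2.03 to -1.55. By contrast DGAT2 was lowest on them, at -1.44, 0.074 and -0.74, against 0.31 to 1.23. So was PPARG, at -1.31, -1.25 and -0.87, against -0.52 to 0.50. The part of muscle or of any other cell type in the FABP4 values was not tested. Over the 8 arrays the genes most like FABP4 were RANBP9 (Pearson's r = 0.999), which encodes a scaffold protein, and SLIT2 (r = 0.997), which encodes a secreted guidance cue. Here and below, such r values are the highest found among the tested genes on only 8 arrays. They describe likeness and are no evidence of a specific link. SLIT2 was 2.58, -1.20, 1.30 and -1.13 in treated cows and 0.57, -1.22, -1.87 and -1.41 in cows given 0 mM, with the same 3 cows at the top.

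**Figure D2:**
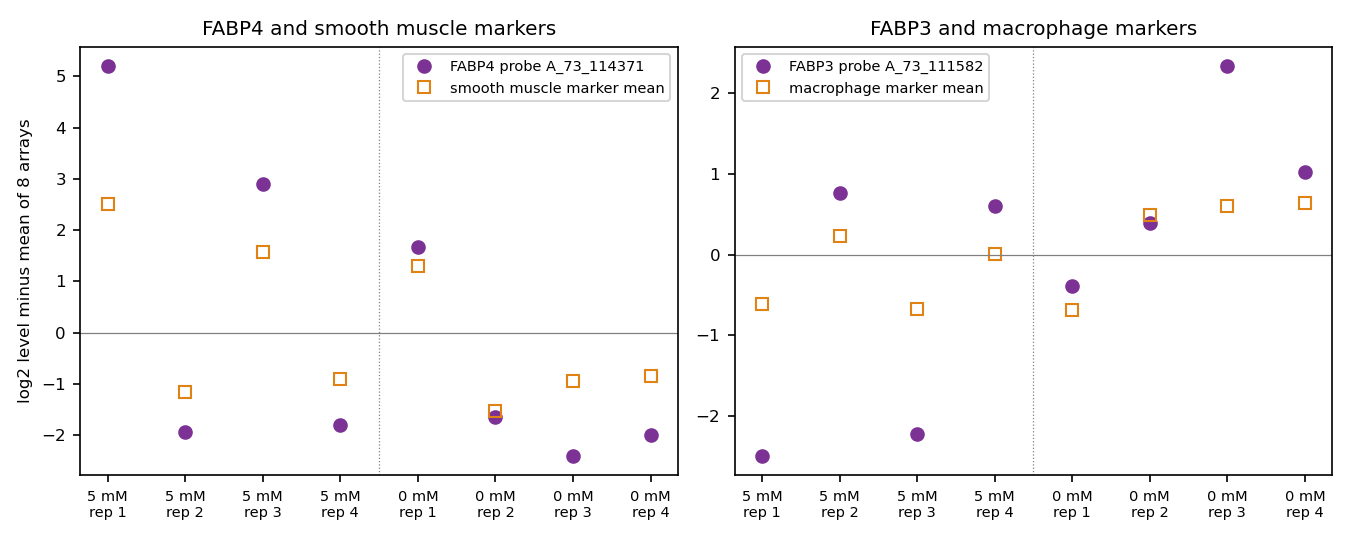
FABP4 beside the mean of 14 smooth muscle markers (left) and FABP3 beside the mean of 12 macrophage markers (right) in each of the 8 cows (x axis), as log2 level minus the mean of the 8 arrays (y axis). FABP4 and the smooth muscle markers are above 0 in 5 mM replicates 1 and 3 and 0 mM replicate 1 only, the cows in which FABP3 and the macrophage markers are below 0.

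FABP3, the FABP of heart and skeletal muscle and of the lactating mammary gland, showed the opposite order. Probe A_73_111582 was -2.46, 0.79, -2.19 and 0.63 in 5 mM replicates 1 to 4 and -0.36, 0.43, 2.36 and 1.05 in 0 mM replicates 1 to 4. The 3 lowest cows were the 3 with high FABP4. The intron-bridging probe A_73_P109351 was -2.80, 0.67, -2.70 and 0.16 with 5 mM and -0.70, 0.26, 2.03 and 0.59 with 0 mM. Probe A_73_P378211 was -4.52, -1.31, -4.61 and -2.01 with 5 mM and -2.38, -1.50, 0.10 and -1.44 with 0 mM. These probes ranked 5 mM replicates 1 and 3 lowest and 0 mM replicate 1 next, and 0 mM replicate 3 highest.

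All 4 FABP3 probes had lower means in the 5 mM group. The difference was -1.68 ± 0.92 for A_73_111582, -1.71 ± 0.94 for A_73_P109351 and -1.81 ± 0.87 for A_73_P378211, with unadjusted p of 0.105, 0.106 and 0.0708 in limma and an adjusted p of 0.913 for each. The fourth probe, A_73_P105971, averaged -5.63 ± 0.85 in treated cows and -4.56 ± 0.42 in cows given 0 mM, which is a difference of -1.07 ± 0.43 (unadjusted p = 0.0368), and it was well above background in 2 of 4 treated cows and in 4 of 4 cows given 0 mM. With normexp background correction this difference was -0.24, so its size depends on the background treatment. Without the 3 muscle-rich arrays the difference was -0.57 for A_73_111582, -0.55 for A_73_P109351, -0.72 for A_73_P378211 and -0.46 for A_73_P105971. Within slides 1, 2 and 3, A_73_111582 differed by -2.10, -0.60 and -1.83.

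The genes most like FABP3 over the 8 arrays were NDUFAF3 (r = 0.983), an assembly factor of mitochondrial complex I, and C1QC (r = 0.981), a complement chain gene of macrophages. C1QC was -1.44, 0.55, -1.02 and 0.38 in treated cows and -0.35, 0.74, 1.77 and 1.04 in cows given 0 mM. Of the 14 macrophage markers 12 were measured, with MARCO and ITGAM not well above background on any array, and 11 of the 12 had lower means in the 5 mM group (median -0.50). Their mean ranged from -0.67 to 0.24 in the 5 mM group and from -0.69 to 0.64 in the 0 mM group. Striated muscle is the tissue best known for FABP3, and 8 of its 14 markers were measured. Their mean ran the other way, at 0.78, -0.21, 0.73 and -0.64 with 5 mM and 0.87, -0.79, -0.55 and -0.20 with 0 mM. The markers were not alike. On 5 mM replicates 1 and 3 and 0 mM replicate 1, ACTA1 was 1.83, 0.32 and -0.19, against -3.37 to -2.07 on the others. MB, ACTN2, CKM and TNNC2 were likewise higher on each of these 3 arrays than on any other. MB was 0.58, -1.08 and -1.31 there, against -2.87 to -2.16, and ACTN2 -1.42, -0.15 and -1.05, against -4.47 to -2.73. MYH7, TNNT1 and TNNT3 did not show this order. MYH7 was -3.66, -3.59 and -3.25 there, against -3.70 to -3.46, and TNNT1 -6.41, -5.06 and -5.08, against -6.00 to -4.43. MYH1, MYH2, TNNI2, MYBPC1 and CASQ1 were well above background on 0 arrays. The part of macrophages or of muscle content in the FABP3 values was not tested.

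FABP5, the epidermal FABP, which is also found in macrophages, endothelium and epithelium, was higher on average in the 5 mM group with each of its 3 probes. Probe A_73_108876 (chr14:41740002-41740061, plus strand) was 0.73, 0.30, 0.59 and 0.012 in 5 mM replicates 1 to 4 and -0.37, -0.31, 0.48 and -0.28 in 0 mM replicates 1 to 4. All treated cows lay above 3 of the 4 cows given 0 mM, and 0 mM replicate 3 lay among the treated ones. The difference was 0.52 ± 0.25 (limma, unadjusted p = 0.0672, adjusted p = 0.913), a ratio of 1.44. Within slides 1, 2 and 3 it was 1.09, 0.21 and 0.58, and without the 3 muscle-rich arrays it was 0.19.

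The other FABP5 probes overlap. A_73_121108 (chr14:41741177-41741236) and A_73_P045346 (chr14:41741196-41741255) share 41 bases with 1 substitution, T32C, counted from 1 at the 5′ end of A_73_121108, whose base is given first. The shared stretch around it is shown because both probes read nearly the same piece of RNA and are no independent evidence, and the capital marks the base that differs.
FABP5 A_73_121108: ggctgctgagcaTcgggtaagtaaaataca
FABP5 A_73_P045346: ggctgctgagcaCcgggtaagtaaaataca
A_73_121108 was -0.28, -1.09, -0.67 and -0.82 with 5 mM and -1.42, -2.12, -0.94 and -1.17 with 0 mM. A single cow of the 5 mM group, replicate 2, lay below the highest cow of the 0 mM group. The difference was 0.70 ± 0.29 (unadjusted p = 0.0406, adjusted p = 0.913 in limma), and that of A_73_P045346 was 0.71 ± 0.41 (unadjusted p = 0.119). Within slides 1, 2 and 3, A_73_121108 differed by 1.14, 0.45 and 0.42. Without the 3 muscle-rich arrays the differences of these overlapping probes were 0.46 and 0.22. In the RefSeq table of assembly ARS-UCD2.0 a long noncoding RNA gene, LOC104974070, overlaps FABP5, and which probes it shares was not tested. MOSPD3 (r = 0.956) and TMEM88B (r = 0.948) were the genes most like FABP5.

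**Figure D3:**
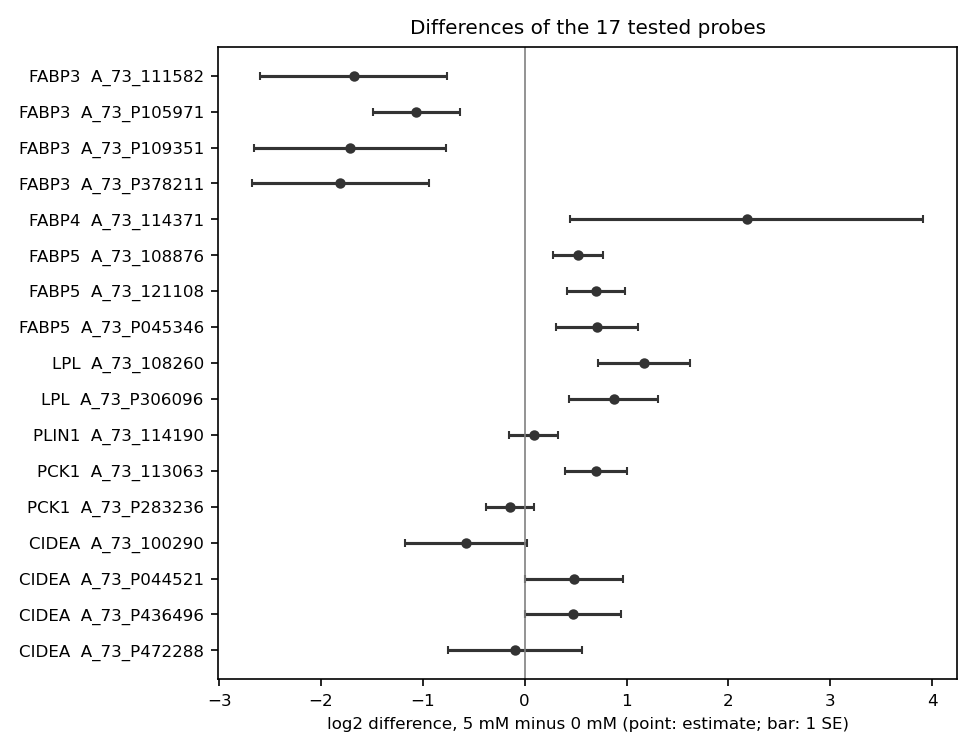
Log2 difference, 5 mM minus 0 mM, of the 17 tested probes (x axis; point: estimate, bar: 1 SE), by gene and probe. The 4 FABP3 probes lie below 0 and the 3 FABP5 and 2 LPL probes above it, while the probes of PCK1 and of CIDEA fall on both sides.

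LPL was higher on average in the 5 mM group, and its order over the cows was not that of FABP3 or FABP4. Its brightest probe, A_73_108260, was 1.11, 2.34, 1.27 and 1.37 in 5 mM replicates 1 to 4 and 1.34, 0.68, -0.66 and 0.044 in 0 mM replicates 1 to 4. All treated cows lay above 3 of the 4 cows given 0 mM, and 0 mM replicate 1 fell within the treated range. The means were 1.52 ± 0.56 and 0.35 ± 0.86 for 5 mM and 0 mM, a difference of 1.17 ± 0.46 or a ratio of 2.25 (limma, unadjusted p = 0.0331, adjusted p = 0.913). The difference was 1.31 without 5 mM replicate 1 and 1.83 without the 3 muscle-rich arrays. Fitting the slide gave 1.25. The cows of slides 1, 2 and 3 taken alone gave -0.23, 2.33 and 1.27, so the direction did not hold on slide 1, where 1 cow of each group was run.

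The second LPL probe, A_73_P306096 (chr8:70213124-70213183), which lies close upstream, was -1.39, -0.63, -1.68 and -1.58 with 5 mM and -1.59, -1.37, -3.14 and -2.68 with 0 mM. As with the first probe, 0 mM replicates 3 and 4 were the lowest cows and 5 mM replicate 2 the highest. It differed by 0.87 ± 0.44 (unadjusted p = 0.081), and by 1.29 without the 3 muscle-rich arrays. The LPL probe farthest upstream, A_73_P102541 (chr8:70194097-70194156), was well above background in 2 of 4 treated cows and in 1 of 4 cows given 0 mM and was not tested. Its signals were -6.38, -5.90, -5.01 and -6.62 with 5 mM and -6.17, -6.87, -7.76 and -7.13 with 0 mM. The genes most like LPL were TMCC3 (r = 0.903) and ALG10 (r = 0.885), lower values of likeness than for the other genes.

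The genes that work with LPL lay on both sides of 0. Of the 19 genes for LPL partners and lipoprotein receptors 14 were measured, 5 with higher and 9 with lower means in the 5 mM group (median -0.067), and 0 passed an unadjusted p under 0.05. Among them SCARB1, the receptor for high-density lipoprotein, averaged 2.23 ± 0.59 in treated cows and 2.83 ± 0.51 in cows given 0 mM, which is a difference of -0.61 ± 0.36, or -0.35 without 5 mM replicate 1. LRP8, a receptor for apolipoprotein E, differed by -1.59 ± 1.32 and APOE itself by -0.57 ± 0.53. The LRP8 value rests on 5 mM replicate 1, at -7.80, where the other treated cows lay between -3.96 and -1.71. Without that cow LRP8 differed by -0.27 and APOE by -0.11, and without the 3 muscle-rich arrays by -0.058 and -0.10. Unadjusted p in limma were 0.126, 0.263 and 0.317 for these 3 genes. The median over all 12966 tested genes was 0.010, with 51.7% of them higher, and 1.95% had an unadjusted p under 0.05.

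Of 16 genes for fatty acid uptake and activation, which include the transporters and the acyl-CoA synthetases, all were measured and 4 were higher and 12 lower (median -0.18). SLC27A1, a fatty acid transport protein gene, differed by 0.35 ± 0.23 and DBI, the acyl-CoA binding protein gene, by -0.30 ± 0.21. These were 0.13 and -0.15 without 5 mM replicate 1, and 0.13 and -0.050 without the 3 muscle-rich arrays. Of the 16 genes, 0 passed an unadjusted p under 0.05. The other genes of the FABP and retinoid binding fold were in large part at background. FABP1, FABP2, FABP6, FABP9 and PMP2 were well above background on 0 arrays, and 5 of 13 were measured, all with lower means in the 5 mM group (median -0.41). FABP7 was well above background in every cow, at 2.44 ± 0.97 with 5 mM and 2.81 ± 0.39 with 0 mM. It was lowest in 5 mM replicate 1, at 1.18. CRABP2, a retinoic acid carrier gene, differed by -0.84 ± 0.63, and by -0.29 without 5 mM replicate 1. In ARS-UCD2.0 FABP9 and FABP12 are the neighbours of FABP4, and in the build of the array the FABP4 probe starts 214046 bases after the last FABP5 probe ends.

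CIDEA, a lipid droplet fusion gene known from brown fat and from the milk-secreting mammary gland, gave 2 patterns, by the place of the probe in the gene. The downstream probes A_73_P436496 and A_73_P044521 (chr24:44388136-44388195) share 50 bases and gave parallel values. A_73_P436496 was 0.93, -0.88, -0.72 and -1.40 in 5 mM replicates 1 to 4 and -0.73, -1.25, -0.71 and -1.29 in 0 mM replicates 1 to 4. Only 5 mM replicate 1, the biopsy low in epithelial markers, was high, and the other 3 treated cows lay within or just below the range of the 0 mM group. Its difference was 0.48 ± 0.47 (limma, unadjusted p = 0.339, adjusted p = 0.913), and -0.0036 without that cow.

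The upstream probes put the same cow at or near the bottom. A_73_100290 was -2.75, -1.17, -1.67 and -0.13 with 5 mM and -1.78, -1.19, -0.51 and 0.069 with 0 mM. A_73_P472288 was -6.20, -5.61, -4.77 and -3.93 with 5 mM and -6.35, -5.37, -4.67 and -3.73 with 0 mM. In both, 5 mM replicate 4 and 0 mM replicate 4 were the highest cows, and in the downstream pair these were the lowest. A_73_P472288 was not well above background on 5 mM replicate 1 and 0 mM replicate 1. Neither probe differed beyond the spread between cows, at -0.58 ± 0.60 (unadjusted p = 0.362) for A_73_100290, which was -0.11 without the 3 muscle-rich arrays, and -0.095 ± 0.66 (unadjusted p = 0.888) for A_73_P472288, which was -0.18 without those arrays. A second protein-coding gene, LOC132343779, overlaps CIDEA in the RefSeq table of ARS-UCD2.0, and which of the probes it shares was not tested. The genes most like the downstream probe were PCMT1 and THRB (r = 0.983 for each), both highest in 5 mM replicate 1.

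**Figure D4:**
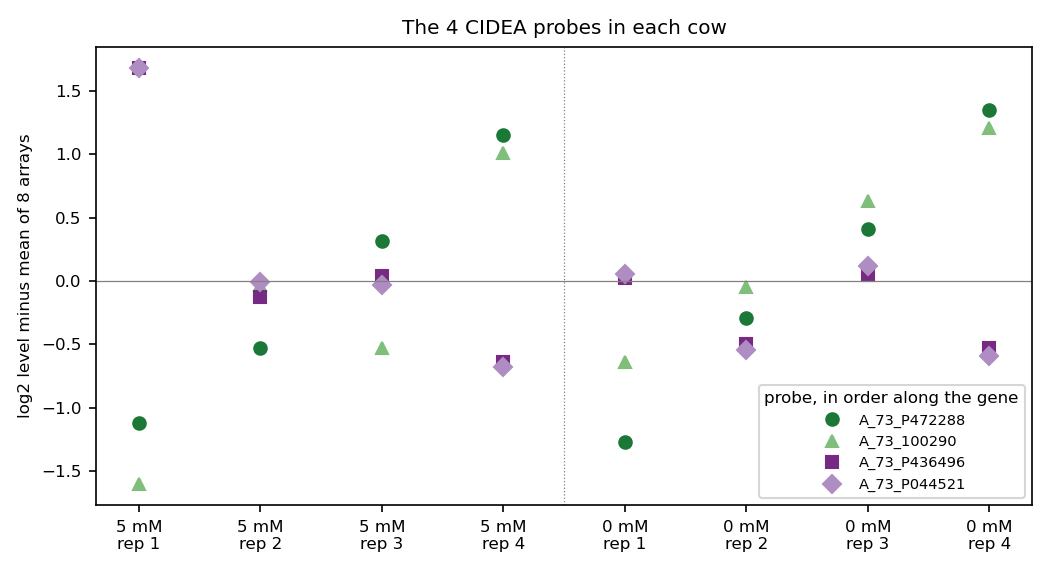
The 4 CIDEA probes, in order along the gene, in each of the 8 cows (x axis), as log2 level minus the mean of the 8 arrays (y axis). The upstream probes (circles and triangles) are low in 5 mM replicate 1 and high in replicate 4 of both groups, and the overlapping downstream probes (squares and diamonds) show the reverse.

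Some of the genes best known from fat cells were at background and others were measured in every cow. ADIPOQ had 2 probes on chromosome 1. A_73_108669 (chr1:82233114-82233173, minus strand) lay between -8.85 and -8.53 in the 5 mM group and between -9.23 and -8.76 in the 0 mM group, with 0 of 8 arrays well above background. A_73_115783 (chr1:82231786-82231845, minus strand) was well above background on 0 mM replicate 4 alone, at -6.32, and was -7.53, -8.69, -8.72 and -8.40 in the 5 mM group and -8.70, -9.09 and -8.35 in the other cows given 0 mM. The groups overlapped with both probes, and no fold was computed for ADIPOQ.

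PLIN1, the perilipin of the large fat droplet, had 1 probe at background and 1 that was measured. A_73_P445456 (chr21:20838543-20838602, minus strand) was not well above background on any of the 8 arrays. A_73_114190 (chr21:20837406-20837465, minus strand) was well above background on all of them, at -3.50, -4.10, -4.57 and -4.28 with 5 mM and -3.99, -4.24, -4.07 and -4.49 with 0 mM. The cows of both groups were mixed, with a difference of 0.087 ± 0.24 (limma, unadjusted p = 0.731, adjusted p = 0.951), or -0.12 without 5 mM replicate 1. PEX11A, a peroxisome gene, overlaps PLIN1 in ARS-UCD2.0. CD4 and TUBG1 (r = 0.961 for each) were most like this probe.

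Of 18 further adipocyte markers 11 were measured, 9 of them well above background on all 8 arrays, and 3 had higher and 8 lower means in the 5 mM group (median -0.17). Those on all arrays include CFD, the adipsin gene, PPARG, the nuclear receptor that drives fat cell formation, and GPD1 and DGAT2 of triglyceride synthesis, which other tissues use as well. LEP, the leptin gene, AQP7, the glycerol channel gene, and TRARG1 were well above background on 0 arrays, and CIDEC was on 1 array at most. CEBPA, an adipogenic transcription factor gene that other tissues use as well, averaged 4.50 ± 0.18 in treated cows and 4.17 ± 0.27 in cows given 0 mM, which is a difference of 0.33 ± 0.18 (limma, unadjusted p = 0.103), and RBP4 differed by -0.68 ± 0.38, or by -0.31 without 5 mM replicate 1. Without the 3 muscle-rich arrays the difference was 0.16 for CEBPA and -0.029 for RBP4. Of the 10 brown and beige adipocyte genes 5 were measured (2 higher, 3 lower, median -0.41), and UCP1, the gene for the heat-producing uncoupling protein, and ELOVL3 were well above background on 0 arrays. COX8B differed by -0.62 ± 0.41, TMEM26 by -0.68 ± 0.64, or by -0.43 without 5 mM replicate 1, and COX7A1 by 0.20 ± 0.22. Whether fat cells were present in the biopsies was not tested.

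PCK1, the cytosolic phosphoenolpyruvate carboxykinase gene, was measured by 2 of its 3 probes, which differed from each other. A_73_113063 was -3.46, -4.76, -4.05 and -3.88 in 5 mM replicates 1 to 4 and -4.24, -4.98, -4.68 and -5.05 in 0 mM replicates 1 to 4. Of the treated cows, only replicate 2 lay below the 0 mM cows with the highest values. Its difference was 0.70 ± 0.30 (limma, unadjusted p = 0.0501, adjusted p = 0.913), 0.24 with normexp, 0.58 without the 3 muscle-rich arrays, and 0.78, 0.071 and 1.08 within slides 1, 2 and 3. A_73_P283236 (chr13:59373254-59373313), a short way upstream, was -4.25, -4.69, -4.47 and -4.87 with 5 mM and -4.11, -4.48, -4.16 and -4.97 with 0 mM, and its difference was -0.14 ± 0.23 (unadjusted p = 0.554), or -0.25 without the 3 muscle-rich arrays. Here the cows given 0 mM had the higher mean and the groups overlapped. The intron-bridging probe A_73_P348596 (chr13:59375364-59376039) was not well above background on any array. KPNA1 (r = 0.971) and FAM204A (r = 0.964) were the genes most like A_73_113063.

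Other genes of gluconeogenesis and glycerol synthesis also lay on both sides of 0. Of 12, 10 were measured, 3 with higher and 7 with lower means (median -0.12), and 0 passed an unadjusted p under 0.05. GK, the glycerol kinase gene, differed by 0.74 ± 0.46, PCK2, the mitochondrial counterpart of PCK1, by -0.60 ± 0.49, and MDH2, the mitochondrial malate dehydrogenase gene, by -0.12 ± 0.21. Without 5 mM replicate 1 these were 0.27, -0.18 and 0.017, and without the 3 muscle-rich arrays 0.15, -0.084 and 0.092. Of the 12 other lipid droplet genes 4 were higher and 8 lower (median -0.19), with CIDEB, a relative of CIDEA, at 1.07 ± 0.53 (limma, unadjusted p = 0.0764) and G0S2, an inhibitor of triglyceride lipase, at -0.76 ± 0.47. Without 5 mM replicate 1, which had the highest CIDEB level of the 8 cows, they were 0.53 and -0.48. Without the 3 muscle-rich arrays CIDEB differed by 0.53 and G0S2 by -0.056. The PPAR and adipogenic transcription factors had 5 higher and 9 lower of 14 measured (median -0.094), with PPARD at -0.29 ± 0.23, KLF5 at -1.33 ± 1.11 and RXRB at 0.20 ± 0.24. KLF5, a factor of epithelium as well, was -5.01 in 5 mM replicate 1 and between -0.52 and 0.27 in the other 7 cows. Without that cow PPARD, KLF5 and RXRB differed by -0.13, -0.073 and 0.096, and without the 3 muscle-rich arrays by -0.27, 0.17 and 0.021. Of the 16 measured adipokines and adiponectin receptors 5 were higher and 11 lower (median -0.079), led by the leptin receptor gene LEPR at -1.12 ± 0.50 (unadjusted p = 0.0534), which was well above background on 2 arrays of the 5 mM group, and by C1QTNF7 at 0.40 ± 0.19. RARRES2, the chemerin gene, differed by -0.32 ± 0.20. Without 5 mM replicate 1, LEPR differed by -0.70 and RARRES2 by -0.20, and without the 3 muscle-rich arrays C1QTNF7 differed by 0.21. None of the 9 lists of lipid genes had a member with an unadjusted p under 0.05, and their medians were all below 0. These directions depended on the setting, since the medians of 8 of the 9 lists were above 0 under at least 1 alternative. Those of 5 lists were above 0 without the 3 muscle-rich arrays. When 1 cow was left out, only the gluconeogenesis list turned, to 0.027 without 5 mM replicate 1. The mean over a list was lowest on 5 mM replicate 1, the array low in epithelial markers, in every list except that of brown and beige adipocyte genes, and the part of tissue composition was not tested.

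**Figure D5:**
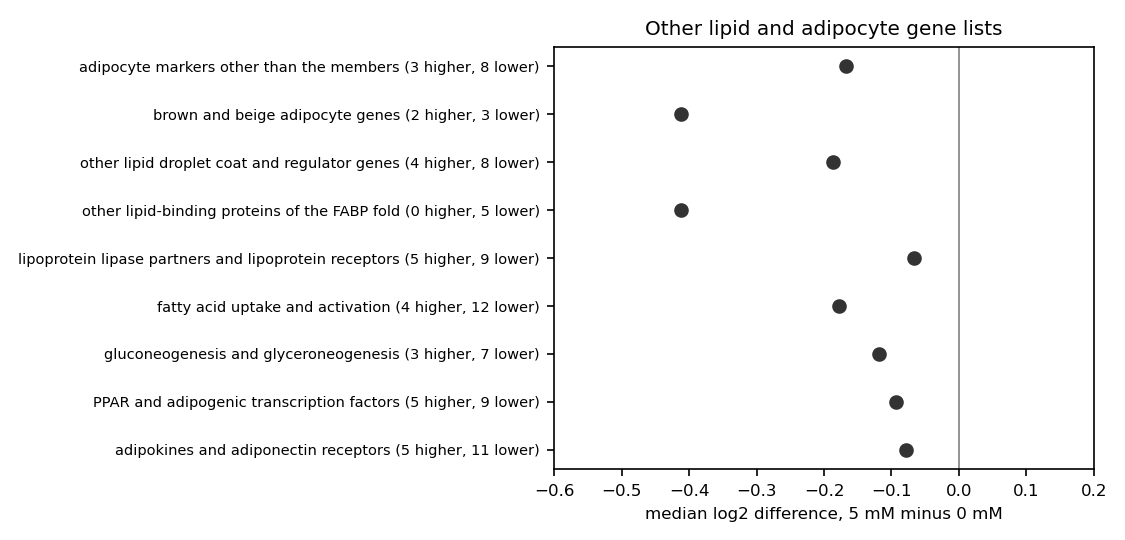
Median log2 difference, 5 mM minus 0 mM, over the measured genes of 9 lists of adipocyte and lipid genes (x axis), with the number of genes higher and lower in the 5 mM group after each name. The medians lie between -0.41 and -0.067.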

How the data were processed

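Total RNA of 8 endometrial biopsies (4 cows at 5 mM and 4 at 0 mM methylglyoxal) was labelled with Cy3 and hybridised to 1-colour Agilent bovine arrays, per the labels' protocols and the file headers. The deposited spot intensity, per the file headers, had been background subtracted and detrended within each array by Feature Extraction 11.5.1.1 (10.5.1.1 per the submitters' processing notes), without scaling between arrays. The deposited value table holds log2 values, which correlated with the per-probe centred levels used here (r of at least 0.9995 across probes). It served as an alternative.

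Control spots and spots marked as outliers were dropped, log2 intensities were averaged per probe, and the log2 75th percentile of the array was subtracted. Probes well above background on at least 4 of 8 arrays (31108) were compared with limma 3.58.1 in R 4.3.3 (lmFit, eBayes, Benjamini-Hochberg over these probes, threshold 0.05). A gene in a list was read from its probe with the highest mean, with names updated through RefSeq of ARS-UCD2.0, in which all 22 probes of the 8 genes matched. No genome of the array's build was used, so exons are not given. On simulated data of 31108 probes, 28% of changes of 1 log2 unit and 64% of changes of 2 were called. The simulated noise was normal and independent between probes. It left out differences in tissue composition that many probes share, so these percentages need not hold for the real arrays.

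The genes and lists were chosen with earlier results of these data known. From each list the 2 genes with the lowest p and the brightest gene were named, and for each tested gene the 2 with the highest Pearson correlation. Not every gene that this rule names is reported here: the cell type marker lists are given by their counts and means. Others named in the text were chosen after their values were seen. Same-numbered cows are different animals. Their deviations from the group means correlated at 0.40, 0.36, -0.30 and 0.31, so the numbers do not pair them. Leaving out the 3 muscle-rich arrays was chosen after seeing the data.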

Additional observations from a re-analysis of the deposited data

Results flagged for a closer look

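In 3 of 80 groups of 4 cows, 1 value stood far from the other 3 by Dixon's test, where chance gives about 5% of groups. The FABP5 probe A_73_108876 had a level of 0.48 in 0 mM replicate 3, while the other 3 cows of that group lay from -0.37 to -0.28. The luminal and glandular epithelium markers averaged -3.38 in 5 mM replicate 1, while the other treated cows lay from 0.31 to 0.57. The macrophage markers averaged -0.69 in 0 mM replicate 1, while the other cows given 0 mM lay from 0.49 to 0.64.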

How the results depend on the processing

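No probe of the array had an adjusted p under 0.05 in limma under any of the 21 alternatives with a test, nor did any of the 17 tested probes. The number of probes at an unadjusted p under 0.05, 595, was 1067 without a filter, 1026 with slide as a block and 1221 with the replicate number as a block, and it ranged from 376 (without 5 mM replicate 3) to 1528 (without 5 mM replicate 2) when 1 cow was left out, with 1065 without 5 mM replicate 4. With the replicate block, 6 of the 17 probes had an unadjusted p under 0.05, against 3.93% of all tested probes. It is reported only as a setting, since the labels used here state no pairing of the cows. The sign of a difference changed in these cases. LPL A_73_108260 was -0.23 within slide 1. PLIN1 A_73_114190 was -0.021 with array weights, -0.010 without 0 mM replicate 4 and -0.12 without 5 mM replicate 1, within a range of -0.12 to 0.24 when 1 cow was left out. PCK1 A_73_P283236 was 0.011 with normexp and 0.29 within slide 3. CIDEA A_73_P436496 was -0.0036 without 5 mM replicate 1 (range with 1 cow left out -0.0036 to 0.77) and -0.057 without the 3 muscle-rich arrays, where A_73_P044521 was -0.0018. CIDEA A_73_P472288 was 0.023 with array weights, 0.15 within slide 1, 0.025 and 0.34 without 0 mM replicates 3 and 4, and 0.26 and 0.067 without 5 mM replicates 1 and 2, with a range of -0.54 to 0.34 when 1 cow was left out. The cause was not tested. Slide 1 holds 1 array of each group, and slides 2 and 3 hold 1 array of 1 of the groups. Over the 9 lists of lipid genes, 16 of 207 medians under alternatives were above 0, the highest at 0.31, and only the adipokine list stayed below 0 throughout. Of these, 5 were without the 3 muscle-rich arrays, 4 within slide 2 and 3 within slide 1. Of 414 list medians under alternatives, 23 moved by more than the SD between cows. Signals near background (ADIPOQ, 1 probe each of LPL, PLIN1 and PCK1) limit what can be said of those probes.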
